A study of Mus musculus with 4 samples.

Results

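Fos, Fosb, Jun, Junb, Jund, Egr1, Atf3, Ier2, Hspa1a and Hspa1b were described across the cells of the mouse submandibular gland (SMG) and sublingual gland (SLG). These 10 genes were picked by symbol from the 32285 genes listed in the deposited matrix, and all 10 were found. Immediate early genes are switched on within minutes of a stimulus, without the need for new protein, and several encode transcription factors. Fos and Jun proteins pair to form AP-1, which binds short DNA sites and turns on later genes. Hspa1a and Hspa1b encode the inducible HSP70 chaperones, which hold damaged proteins in a state from which they can refold and are driven by heat shock factor. Both groups are known to rise when tissue is cut, warmed and digested with enzymes, as well as when cells respond to signals in the living tissue.

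The cells came from untreated wild-type female C57BL/6N mice of 6 to 8 weeks, the 1 group that was used here. Both glands were taken fresh and digested together for 30 min at 37 °C in collagenases, hyaluronidase, dispase and pancreatin. The labels list 4 samples, and each label names 2 mice without saying whether these are the same mice. The study's methods give another number of mice. The samples were deposited as 1 matrix of unique molecular identifier (UMI) counts with no map from cells to samples, so it counted as 1 sample. Each UMI stands for 1 captured RNA molecule, read at its 3' end, so a gene's length does not set its count. No sample prepared without digestion was used here. RNA made in the gland and RNA made during digestion cannot be told apart in these cells. The matrix held 15707 distinct barcodes with a median of 2608 UMIs and 689 genes. Without replicates there was no test: every interval below is a 95% interval that covers counting error only, and a difference means a difference between sums over cells of 1 matrix.

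A few saliva transcripts made up 77.5% of all UMIs and up to 91.1% in acinar cells. Levels are therefore given as UMIs per 10000 UMIs outside a list of 57 secretory genes, summed over a class. The cells fell into 24 clusters, formed without the 10 genes. Clusters were named from marker lists and are called "-like": 17 clusters with 9587 cells (61.0%) received a name and 7 did not. Of the 9 classes, 5 were epithelial. Serous acinar-like cells (2256 cells) had 9 or 10 of 12 markers, such as Prol1, Lpo and Bhlha15. Dcpp-rich acinar-like cells (527) had the 3 Dcpp genes and mucous acinar-like cells (360) had Muc19, A2ml1 and Spdef. Ductal-like cells (2907) held Krt7, Krt18 and Epcam in each of their 4 clusters. Basal or myoepithelial-like cells (235) had Krt5, Krt14, Trp63 and Acta2. The 4 non-epithelial classes were lymphoid-like (1233 cells, mostly led by Xcl1, Ccl5 and Nkg7), myeloid-like (1065, C1qa and Cd74), vascular-like (739, Pecam1, Cdh5 and Plvap) and mesenchymal-like (265, Col1a1, Dcn and Pdgfra). In vascular-like cells 63.6% of UMIs were still secretory transcripts, beside 12.8% to 16.8% in the other non-epithelial classes.

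The regulatory sequence just upstream of the start site is shown for genes whose levels moved together or apart across the cells. Sequences are the 250 bases before the RefSeq start on GRCm38.p6, 5' to 3' on the gene's strand. Capitals mark TGACG, the core of a cAMP response element, or GAANNTTC, an inverted pair of heat shock element units, on either strand.
The Hspa1 pair is shown first, because the genes of the pair have nearly the same upstream sequence and followed each other over clusters.
Hspa1a: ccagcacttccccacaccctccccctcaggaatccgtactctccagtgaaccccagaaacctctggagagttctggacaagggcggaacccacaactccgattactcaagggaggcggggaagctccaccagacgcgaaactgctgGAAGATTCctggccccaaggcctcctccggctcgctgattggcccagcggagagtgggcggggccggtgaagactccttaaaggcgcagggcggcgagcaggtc
Hspa1b: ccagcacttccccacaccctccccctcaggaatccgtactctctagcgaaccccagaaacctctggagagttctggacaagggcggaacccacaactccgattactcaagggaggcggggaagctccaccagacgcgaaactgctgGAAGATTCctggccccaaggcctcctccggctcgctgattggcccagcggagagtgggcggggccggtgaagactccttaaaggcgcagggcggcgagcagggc
The 4 next genes are shown because Fos and Jun had nearly the same pattern over clusters, Junb departed from it, and Atf3 took another order of classes.
Fos: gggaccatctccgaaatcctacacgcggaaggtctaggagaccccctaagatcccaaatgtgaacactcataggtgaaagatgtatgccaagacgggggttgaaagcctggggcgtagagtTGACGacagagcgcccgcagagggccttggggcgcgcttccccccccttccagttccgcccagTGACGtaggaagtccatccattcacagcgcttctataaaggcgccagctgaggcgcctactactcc
Jun: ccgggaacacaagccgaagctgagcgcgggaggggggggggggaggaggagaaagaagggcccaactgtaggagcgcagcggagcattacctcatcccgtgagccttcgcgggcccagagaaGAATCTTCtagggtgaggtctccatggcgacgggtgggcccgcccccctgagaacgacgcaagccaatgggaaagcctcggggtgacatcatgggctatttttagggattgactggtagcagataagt
Junb: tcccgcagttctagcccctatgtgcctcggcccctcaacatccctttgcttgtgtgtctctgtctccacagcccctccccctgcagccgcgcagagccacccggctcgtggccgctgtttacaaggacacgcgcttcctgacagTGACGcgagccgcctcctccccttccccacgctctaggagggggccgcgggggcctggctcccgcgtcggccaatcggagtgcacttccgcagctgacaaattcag
Atf3: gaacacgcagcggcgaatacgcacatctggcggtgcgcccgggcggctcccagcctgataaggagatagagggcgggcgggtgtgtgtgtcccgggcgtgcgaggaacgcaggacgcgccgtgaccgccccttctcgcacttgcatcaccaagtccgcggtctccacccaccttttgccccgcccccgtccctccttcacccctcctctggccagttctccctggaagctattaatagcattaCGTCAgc
These stretches lie at chr17:34972157-34972406 and chr17:34959239-34959488 for the Hspa1 pair, at chr12:85473640-85473889 for Fos, chr4:95052223-95052472 for Jun, chr8:84978749-84978998 for Junb and chr1:191183334-191183583 for Atf3. Fos is on the plus strand and the other 5 are on the minus strand.

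Counting from 1 at the 5' end of the printed stretch, Hspa1b differed from Hspa1a by 3 substitutions, C44T, T47C and T249G. GAANNTTC was found in Hspa1a, Hspa1b and Jun, or 3 of the 8 genes with a promoter entry, and in 6.69% of 32851 promoters. TGACG was found in Fos, Fosb, Junb and Atf3, and in 17.8% of promoters. A CCAAT box was present in Jun, Junb, Hspa1a and Hspa1b (33.8% of promoters) and TATAAA in Fos alone (12.4%). Neither TGANTCA, the AP-1 site (6.75% of promoters), nor TTCNNGAA, the heat shock pair in the other orientation (7.17%), was found in any of the 8. No matches overlapped each other. A match to such short letters is a description of the sequence and not a measured binding site.

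Hspa1a (chr17:34969190-34972156) and Hspa1b (chr17:34956436-34959238) are neighbouring single-exon genes on GRCm38, per GENCODE M21. Their coding sequences were 99.4% identical, whereas their 3' UTRs were 47.3% identical. Of 411 windows of 90 bases in the last 500 bases of either transcript, 0 were shared with any other gene, and the same held for each of the 10 genes. Reads from 3' ends could therefore be assigned to 1 gene of the pair. Jun (chr4:95049034-95052222), Junb (chr8:84974484-84978718), Jund (chr8:70698949-70700616) and Ier2 (chr8:84661331-84662852) also have a single exon. Fos (chr12:85473890-85477273), Fosb (chr7:19302696-19310051) and Atf3 (chr1:191170296-191218039) have 4 exons. Jun overlaps the antisense gene Junos and Junb overlaps Prdx2 on the other strand.

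The 10 genes were among the most abundant transcripts outside saliva. Together they had 421715 UMIs, or 1.5% of all non-secretory UMIs. Fos was the highest at 30.3 per 10000 and ranked 54 of the 19290 genes with a UMI. Atf3, a stress-induced factor that can act as a repressor, stood at 23.4 and Jun at 22.6. Junb and Jund, the other Jun proteins that pair with Fos, stood at 17.2 and 14.8. Egr1, a zinc finger factor, followed at 12. Ier2 was at 7.77, Hspa1a at 7.48, Fosb at 7.21 and Hspa1b at 6.96. At least 1 Fos UMI was found in 77.3% of cells, and the lowest share was 40.3% for Hspa1a.

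The highest and the lowest class differed beyond counting error for each of the 10 genes, but both were picked from these same levels. The gap is thus a description of the range and not a test. Mesenchymal-like cells had the highest level of 8 of the 10 genes, and lymphoid-like cells the lowest level of 8. The exceptions at the top were Atf3, highest in basal or myoepithelial-like cells, and Hspa1a, highest in vascular-like cells. At the bottom they were Junb and Ier2, lowest in serous acinar-like cells. How many of all genes take these places was not counted, here or in the alternatives below. Of all genes, 43.0% were at least 2-fold lower in lymphoid-like cells than in the other named classes. In mesenchymal-like cells 15.2% were at least 2-fold higher.

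**Figure D1:**
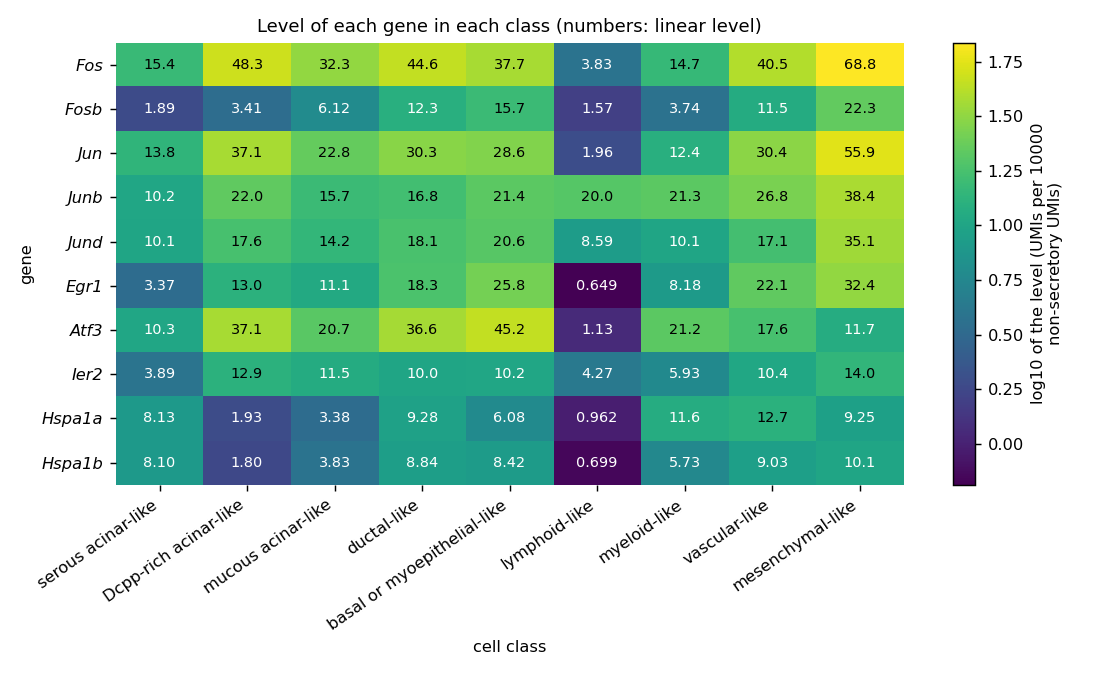
Level of the 10 genes (vertical axis) in the 9 cell classes (horizontal axis), with colour on a log10 scale and the linear level, in UMIs per 10000 non-secretory UMIs, printed in each cell. Fos runs from 3.83 in lymphoid-like to 68.8 in mesenchymal-like cells, and the Hspa1 pair is low in both lymphoid-like and Dcpp-rich acinar-like cells.

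The level of Fos was 68.8 (66.7 to 71.0) in mesenchymal-like, 48.3 (47.2 to 49.5) in Dcpp-rich acinar-like, 44.6 in ductal-like, 40.5 in vascular-like, 37.7 in basal or myoepithelial-like and 32.3 in mucous acinar-like cells. It was 15.4 in serous acinar-like, 14.7 in myeloid-like and 3.83 (3.57 to 4.10) in lymphoid-like cells. Each neighbour in this order differed beyond its interval, and the highest level was 18.0 times the lowest (16.7 to 19.4).

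Fosb, a paralog of Fos that also pairs with Jun proteins, was lower than Fos in every class. Its level was 22.3 (21.1 to 23.6) in mesenchymal-like, 15.7 in basal or myoepithelial-like, 12.3 in ductal-like, 11.5 in vascular-like and 6.12 in mucous acinar-like cells. Myeloid-like cells at 3.74 and Dcpp-rich acinar-like cells at 3.41 did not differ beyond their intervals. Serous acinar-like cells stood at 1.89 and lymphoid-like cells at 1.57. Fosb thus made up 6.58% (6.02 to 7.19) of Fos and Fosb UMIs in Dcpp-rich acinar-like cells, 11% among serous acinar-like cells and 29.4% (28.3 to 30.5) in basal or myoepithelial-like cells.

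Jun followed Fos closely. It stood at 55.9 (53.9 to 57.9) in mesenchymal-like, 37.1 in Dcpp-rich acinar-like, 30.4 in vascular-like, 30.3 in ductal-like, 28.6 in basal or myoepithelial-like and 22.8 in mucous acinar-like cells. Vascular-like and ductal-like cells did not differ beyond their intervals. Serous acinar-like cells had 13.8, myeloid-like cells 12.4 and lymphoid-like cells 1.96 (1.77 to 2.15).

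Junb was the flattest of the AP-1 genes. Its level was 38.4 (36.8 to 40.1) in mesenchymal-like, 26.8 in vascular-like, 22.0 in Dcpp-rich acinar-like, 21.4 in basal or myoepithelial-like and 21.3 in myeloid-like cells. The last 3 did not differ beyond their intervals as neighbours. It was 20 (19.4 to 20.6) in lymphoid-like, 16.8 in ductal-like and 15.7 in mucous acinar-like cells. Serous acinar-like cells had the lowest level at 10.2 (9.94 to 10.5), which gave a 3.77-fold range.

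Jund, which many cells express without a stimulus, ranged 4.09-fold. It was 35.1 (33.6 to 36.7) in mesenchymal-like and 20.6 in basal or myoepithelial-like cells. Ductal-like (18.1), Dcpp-rich acinar-like (17.6) and vascular-like cells (17.1) did not differ as neighbours. Mucous acinar-like cells had 14.2, serous acinar-like and myeloid-like cells 10.1 each, and lymphoid-like cells 8.59 (8.21 to 8.99).

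Egr1 was 32.4 (30.9 to 33.9) in mesenchymal-like, 25.8 in basal or myoepithelial-like, 22.1 in vascular-like, 18.3 in ductal-like, 13.0 in Dcpp-rich acinar-like and 11.1 in mucous acinar-like cells. Myeloid-like cells had 8.18, serous acinar-like cells 3.37 and lymphoid-like cells 0.649 (0.546 to 0.765). Ier2, a small nuclear protein gene, was between 10.0 and 14.0 in 6 classes and was 5.93 in myeloid-like and 4.27 in lymphoid-like cells. Its lowest level, 3.89 (3.73 to 4.06), was that of serous acinar-like cells. Vascular-like, basal or myoepithelial-like and ductal-like cells did not differ in Ier2 as neighbours.

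Atf3 took another order. It was 45.2 (44.0 to 46.4) in basal or myoepithelial-like cells, 37.1 in Dcpp-rich acinar-like and 36.6 in ductal-like cells, and the last 2 did not differ beyond their intervals. Myeloid-like (21.2) and mucous acinar-like cells (20.7) did not differ either. Vascular-like cells had 17.6, mesenchymal-like cells 11.7 (10.8 to 12.6), serous acinar-like cells 10.3 and lymphoid-like cells 1.13 (0.995 to 1.28). Mesenchymal-like cells, highest for Fos and Jun, were thus above only serous acinar-like and lymphoid-like cells for Atf3. Atf3 made up 14.5% (13.5 to 15.6) of Atf3 and Fos UMIs there, beside 54.6% in basal or myoepithelial-like and 59.1% (58.0 to 60.1) in myeloid-like cells.

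Hspa1a was 12.7 (12 to 13.4) in vascular-like, 11.6 in myeloid-like, 9.28 in ductal-like, 9.25 in mesenchymal-like, 8.13 in serous acinar-like and 6.08 in basal or myoepithelial-like cells. It was 3.38 in mucous acinar-like, 1.93 (1.70 to 2.18) in Dcpp-rich acinar-like and 0.962 in lymphoid-like cells. Hspa1b was 10.1 (9.25 to 10.9) in mesenchymal-like, 9.03 in vascular-like, 8.84 in ductal-like, 8.42 in basal or myoepithelial-like and 8.10 in serous acinar-like cells. The last 4 of these did not differ as neighbours. Myeloid-like cells had 5.73, mucous acinar-like cells 3.83, Dcpp-rich acinar-like cells 1.80 (1.58 to 2.04) and lymphoid-like cells 0.699. The genes of the pair stood at nearly equal levels in serous acinar-like and ductal-like cells and apart in myeloid-like cells.

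Each class was then compared with the other named classes pooled, and a gene was counted when it differed at least 2-fold among the 12089 genes with at least 50 UMIs. In lymphoid-like cells, 7 of the 10 genes were lower (Atf3, Egr1, Jun, Hspa1b, Hspa1a, Fos and Fosb), beside 43.0% of all genes. Atf3 was 22.9-fold lower (log2 -4.52, -4.70 to -4.33), Egr1 20.8-fold, Jun 12.5-fold and Fos 8.62-fold. Junb was 1.16-fold higher (log2 0.22, 0.17 to 0.26). Of 43 other immediate early genes, 21 were lower in lymphoid-like cells and 9 were higher, beside 9.90% of all genes. The 9 were Btg1, Dusp2, Dusp5, Fosl2, Ier5l, Nr4a2, Nr4a3, Tnfaip3 and Zfp36l2, named after their values were seen. Nr4a2, an orphan nuclear receptor, stood at 5.76 in lymphoid-like cells and at 0.478 to 1.57 in the other classes.

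Droplets also carry free RNA from broken cells. Lymphoid-like cells should lack the acinar transcripts Scgb2b27, Mucl2 and Pip. From the UMIs of these 3 genes there, free RNA was estimated at 527 UMIs per droplet, taken to have the make-up of the whole matrix. That share held 0.143 Egr1 and 0.278 Atf3 UMIs, beside 0.114 and 0.20 UMIs per lymphoid-like cell. The lymphoid-like levels of Egr1 and Atf3 were therefore no higher than this background, and the folds against them rest on it. Jun had 0.345 UMIs per lymphoid-like cell beside 0.268 of free RNA, and Fos had 0.675 beside 0.36. Junb had 3.53 beside 0.205. With free RNA taken away, the lymphoid-like level was 1.91 for Fos, 0.465 for Jun and 20.2 for Junb, and 8 of the 10 genes were still lowest in lymphoid-like cells. Per 10000 of all UMIs, saliva transcripts included, 0 of the 10 were lowest there and 8 were lowest in serous acinar-like cells.

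In mesenchymal-like cells 6 of the 10 genes were at least 2-fold higher than in the other named classes, beside 15.2% of all genes. They were Fosb (3.15-fold), Egr1 (2.76-fold), Jun (2.60-fold), Jund (2.47-fold), Fos (2.35-fold) and Junb (2.26-fold). Atf3 was the 1 gene of the 10 that was lower, by log2 -1.03 (-1.14 to -0.91), beside 24.6% of all genes. Of the other immediate early genes, 12 of 43 were higher and 9 lower. Cebpd, a factor of the C/EBP family, reached 33.5 there and Klf2, a shear-responsive factor in endothelium, 18.9. Mesenchymal-like cells had a median of 1872 non-secretory UMIs and basal or myoepithelial-like cells 4126. In UMIs per cell, all 10 genes were highest in basal or myoepithelial-like cells, where Fos had 19.8 UMIs per cell beside 14.7 in mesenchymal-like cells. Basal or myoepithelial-like cells also had the highest median of non-secretory UMIs of the 9 classes. The share of all genes that were highest there per cell was not counted. Cluster 14 (300 cells), led by Col1a2 and Col3a1, stayed unnamed and had 6 mesenchymal and 6 serous acinar markers. Its levels were 33.0 for Fos, 27.1 for Jun and 13.3 for Egr1, below those of mesenchymal-like cells, and 15.0 for Atf3, above theirs.

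Acinar-like cells were split. Dcpp-rich and serous acinar-like cells had close depths, with medians of 25148 and 24299 UMIs and 89.4% and 91.1% secretory transcripts. Between them, 6 of the 10 genes were at least 2-fold higher in Dcpp-rich acinar-like cells, beside 8.23% of 8243 genes. They were Egr1 (log2 1.95, 1.85 to 2.04), Atf3 (1.85), Ier2 (1.73), Fos (1.65), Jun (1.43) and Junb (1.11, 1.05 to 1.18). Both heat shock genes went the other way, beside 6.30% of genes: Hspa1a by log2 -2.08 (-2.26 to -1.90) and Hspa1b by -2.17 (-2.36 to -1.98). The Hspa1 pair thus held 19.1% of the UMIs of the 10 genes in the serous class and 1.91% in the Dcpp-rich class. Of 20 other heat shock genes, 2 were at least 2-fold higher in Dcpp-rich than serous acinar-like cells (Hspa2 and Hspb8) and 3 were lower (Cryab, Hspd1 and Hsph1). Hspa8 was 21.3 in Dcpp-rich and 15.9 in serous acinar-like cells, and Hspb8 was 1.70 and 0.760. The split was smaller between the unnamed low-gene clusters 0 (2816 cells, led by Dcpp2) and 1 (2225 cells, led by Prol1). Hspa1a was 5.10 in cluster 0 and 6.53 in cluster 1, Hspa1b 5.49 and 7.94, and Fos 34.0 and 24.5. None of the 10 genes differed 2-fold between these clusters. The share of all genes that did was not counted, and the clusters had medians of only 324 and 421 genes.

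Against all other named classes, serous acinar-like cells were at least 2-fold lower in Fosb, Egr1, Atf3, Ier2 and Fos, or 5 of the 10 genes beside 30.8% of all genes. Of the 43 other immediate early genes, 31 were lower there. Dcpp-rich acinar-like cells were lower in Hspa1a, Hspa1b and Fosb (24.9% of all genes). In the other list 4 genes were higher (Ier3, Gadd45g, Socs3 and Dusp5, beside 6.35% of all genes), led by Ier3 at 27.3, and 16 of the 43 were lower. Mucous acinar-like cells were lower in Hspa1a alone, by log2 -1.23 (18.1% of all genes).

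Ductal-like cells were higher in Fosb (log2 1.27) and Atf3 (1.1), beside 12.2% of all genes. Their 4 clusters differed. The Esp4-led cluster 10 had the highest level of each of the 10 genes among the ductal-like clusters, with Fos at 57.8 beside 36.8 to 44.7, Jund at 29.7 beside 15.7 to 16.5, and Hspa1a at 15.6 (14.9 to 16.3) beside 6.85 to 9.14. Cluster 3, led by the ionocyte genes Ascl3 and Foxi1, had Fosb at 5.74 (5.46 to 6.04) beside 13.4 to 18.5 in the other ductal-like clusters, while its Fos was 44.7. Fosb was 11.4% of Fos and Fosb UMIs in cluster 3 and 23.7% to 31.4% in the others. Among these, cluster 9, with Fosb at 13.4, also had Ascl3 and Foxi1 counted as markers, beside kallikrein genes such as Klk1. The median mitochondrial share was 10.2% in ductal-like cells and 0.730% to 3.87% in the other classes. Between the 25% of ductal-like cells with the highest mitochondrial share and the 25% with the lowest, all 10 genes were lower in the former, from log2 -0.46 for Ier2 to -1.16 for Jund. These cells differed in cluster: cluster 10 made up 3.44% of the former and 50.8% of the latter. Within cluster 10, Hspa1a and Hspa1b were higher in the cells with the highest share (both log2 0.28), while Fos differed by -0.12 (-0.22 to -0.02). Fos differed by -0.37 to -0.59 within the other 3 clusters. The median mitochondrial share was 21.2% in the ductal-like cells with the highest share and 3.92% in those with the lowest. Mitochondrial UMIs are part of the denominator of a level, and their part in this difference was not tested. How many of all genes were lower in the cells with the highest share, or highest in cluster 10, was not counted.

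**Figure D2:**
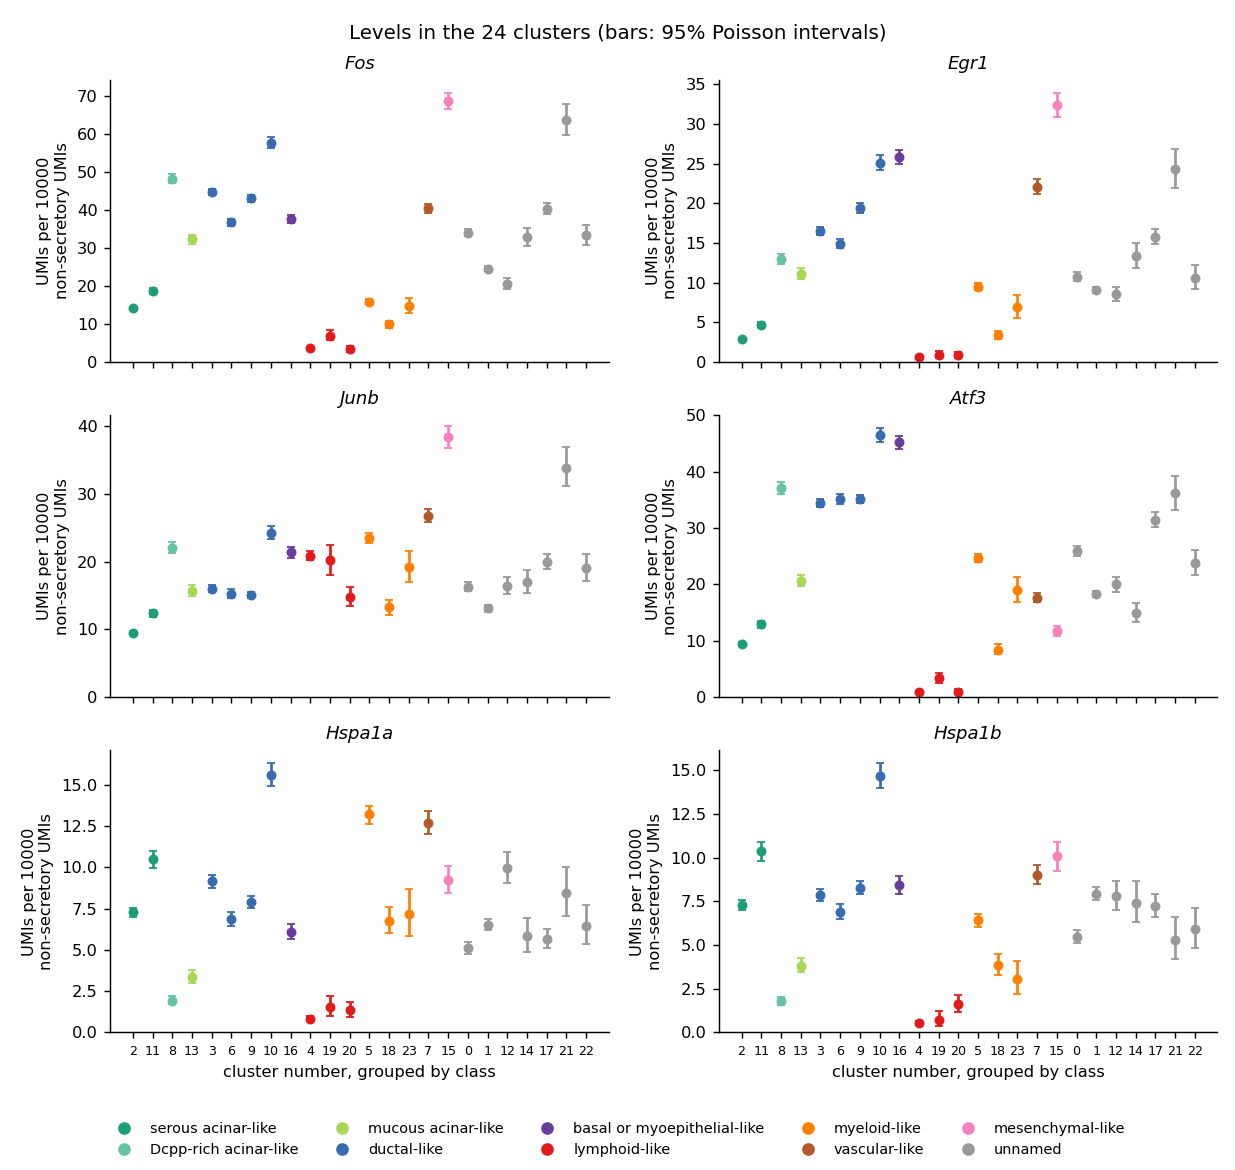
Level in UMIs per 10000 non-secretory UMIs (vertical axis, with bars for 95% Poisson intervals) of 6 genes in each of the 24 clusters (horizontal axis), grouped and coloured by class. Cluster 10 stands above the other ductal-like clusters, clusters 4, 19 and 20 (lymphoid-like) are near 0 except for Junb, and cluster 8 (Dcpp-rich acinar-like) is high for Fos and Atf3 and low for Hspa1a and Hspa1b.

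Basal or myoepithelial-like cells were at least 2-fold higher in Fosb, Egr1 (both log2 1.17) and Atf3 (1.02), beside 9.29% of all genes. Of the other immediate early genes 11 were higher and 2 lower (Dusp2 and Klf2, beside 16.4% of all genes). Ccn1, which encodes a matricellular protein, stood at 6.11 there and at 1.64 or less in the other classes. Vascular-like cells were within 2-fold of the other classes for all 10 genes, beside 13.1% of all genes that were higher and 13.7% that were lower. Egr1 was nearest to the threshold at log2 0.91 (0.85 to 0.97). Klf2 stood at 11.6 and Klf4 at 7.83 in vascular-like cells, beside 18.9 and 7.81 in mesenchymal-like cells.

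Myeloid-like cells were lower in Fos (log2 -1.12) and Fosb (-1.08), beside 49.7% of all genes. Hspa1a was 1.59-fold higher and Hspa1b 1.24-fold lower there. Hspa1a made up 66.9% (65.4 to 68.3) of the UMIs of the pair in myeloid-like cells, 58.4% in vascular-like, 57.9% (52.6 to 63.0) in lymphoid-like, 50.1% (49.0 to 51.1) in serous acinar-like and 41.9% (39.7 to 44.3) in basal or myoepithelial-like cells. The 3 myeloid-like clusters had 63.6% to 70.1%. The make-up of the Jun family also set the immune classes apart. Junb was 65.5% (64.4 to 66.7) of Jun, Junb and Jund UMIs in lymphoid-like cells, 48.7% in myeloid-like cells, 36.1% in vascular-like cells and 25.8% to 30.3% in the other classes. Jund took 22.9% to 29.6% in every class.

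**Figure D3:**
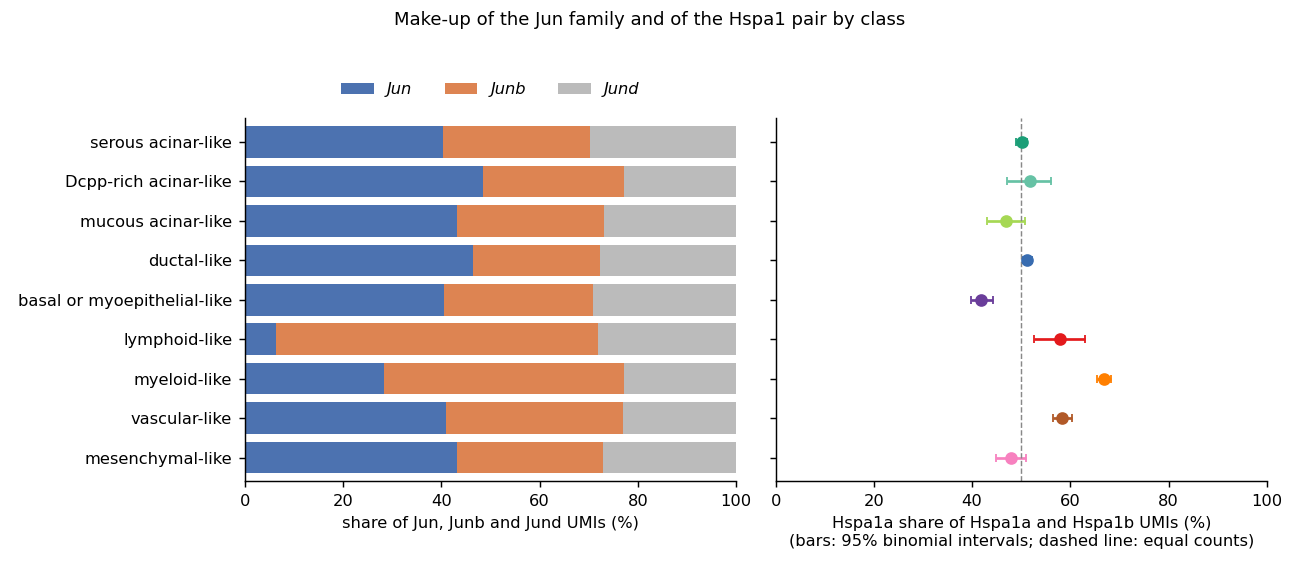
Left, share of Jun, Junb and Jund UMIs (percent, stacked bars) in each class. Right, Hspa1a share of Hspa1a and Hspa1b UMIs (percent, points with 95% binomial intervals), where myeloid-like cells reach 66.9% and basal or myoepithelial-like cells 41.9%.

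Shares of cells with a UMI depend on depth, so each cell was also thinned to 300 non-secretory UMIs. The plot of shares by class shows the unthinned and thinned values. Fos was found in 71.1% (67.0 to 75.0) of thinned Dcpp-rich acinar-like, 69.8% of mesenchymal-like, 30.4% of serous acinar-like and 10.3% (8.66 to 12.1) of lymphoid-like cells, beside 96.4%, 90.2%, 71.3% and 38.0% before thinning. Junb was found in 44.9% (42.1 to 47.8) of thinned lymphoid-like cells and in 23.0% of serous acinar-like cells. Hspa1a was found in 5.2% of Dcpp-rich and 17.9% of serous acinar-like cells. Thinning left out 603 cells with fewer UMIs, 556 of them in unnamed clusters. Lymphoid-like cells had the lowest thinned share for 8 of the 10 genes, and for 1 when cells were thinned to 500 of all UMIs.

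**Figure D4:**
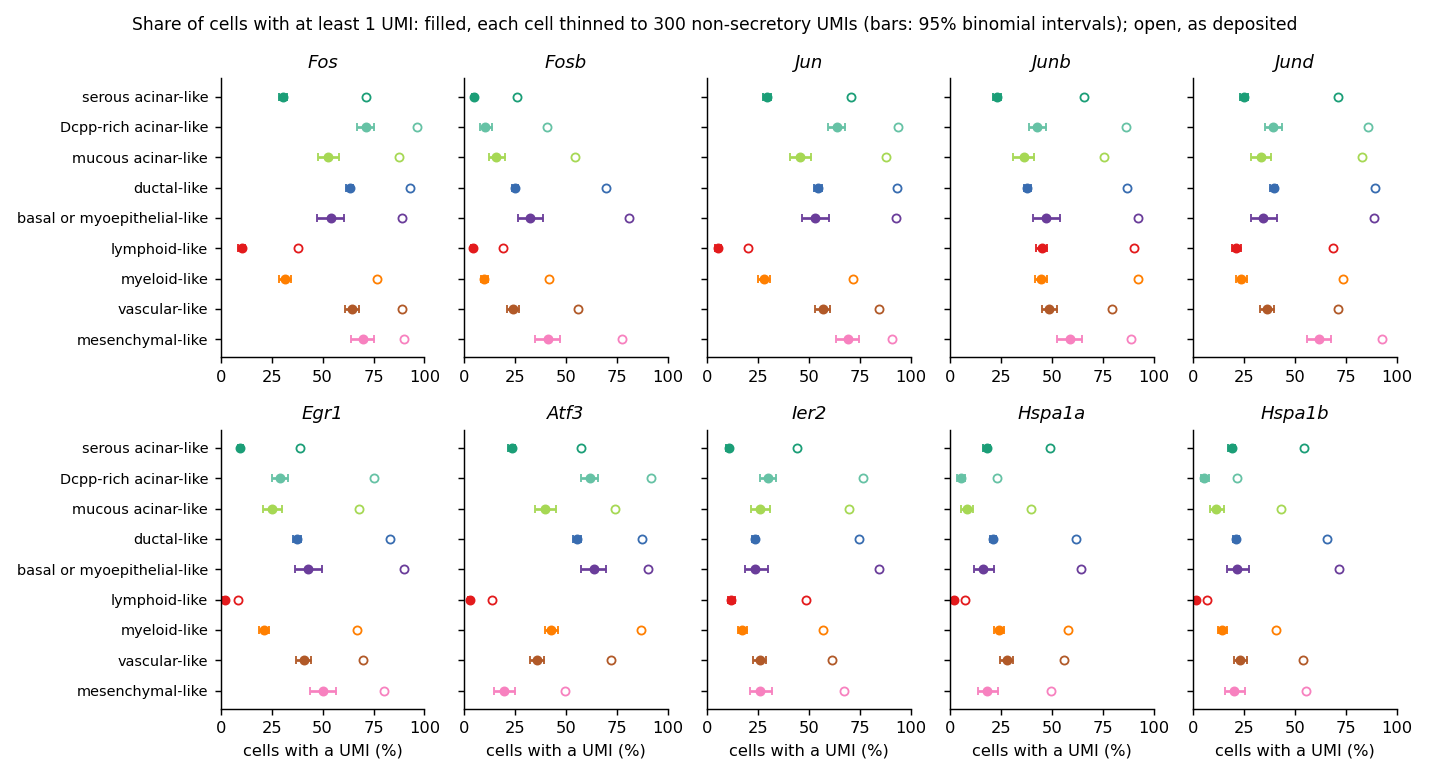
Percent of cells with at least 1 UMI (horizontal axis) of each gene in each class (vertical axis). Filled points are cells thinned to 300 non-secretory UMIs with 95% binomial intervals, and open points are the counts as deposited.

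After thinning, a mesenchymal-like cell held UMIs of 3.97 of the 8 immediate early genes on average, a basal or myoepithelial-like cell 3.52, a Dcpp-rich acinar-like cell 3.48, a ductal-like cell 3.37 and a lymphoid-like cell 1.03. At least 5 of the 8 were found in 46.4% of mesenchymal-like cells and in 0.243% of lymphoid-like cells. None was found in 3.47% of Dcpp-rich acinar-like, 4.4% of ductal-like and 26.8% of serous acinar-like cells. Of myeloid-like cells with a Fos UMI 43.2% also had a Jun UMI, beside 20.9% of those without. The shares were 77.8% and 48.8% in mesenchymal-like cells, and 4.72% and 5.42% in lymphoid-like cells. Hspa1b was found in 50% of basal or myoepithelial-like cells with a Hspa1a UMI and in 16.2% of those without, but the shares were 27.5% and 21.3% in vascular-like and 10.3% and 11.5% in mucous acinar-like cells.

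Over the 24 clusters, the log2 level of Fos followed that of Jun (Pearson r 0.98) and Egr1 (0.96), and that of Atf3 less closely (0.88). Junb followed Fos at 0.39 and Hspa1b at -0.01. Hspa1a and Hspa1b followed each other at 0.91. These correlations describe 24 clusters of 1 matrix that share libraries and free RNA. Among 6423 genes, the next most similar to Fos, Jun and Egr1 beside each other was Zfp36 (0.93 to 0.94), whose protein speeds the decay of early mRNAs. Zfp36, Btg2 and Egr1 were nearest to Atf3 (0.89 each), and Fos, Mgst1 and Egr1 to Ier2 (0.80 to 0.82). Fosb was nearest to Cbx6 (0.91), Ddah2 and Tgfb2, Junb to Itm2b (0.86), Acap2 and Ttc28, and Jund to Cfl2 (0.86), Nsfl1c and Cnn3. After its partner, Hspa1a was nearest to Parp12 (0.83) and Wdfy3, and Hspa1b to Plxnb2 (0.85) and Wdfy3.

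The 4 non-epithelial classes pooled were then compared with the 5 epithelial classes pooled. None of the 10 genes was at least 2-fold higher in non-epithelial cells, beside 16.9% of all genes. Atf3 alone was at least 2-fold lower (12.7 beside 27.6, log2 -1.12, -1.16 to -1.09), beside 26.6% of all genes. Fos was 20.4 beside 33.9 (log2 -0.73), Jun and Hspa1b were both at log2 -0.64, and Junb was 23.4 beside 15.3 (log2 0.61). The median of the 10 genes was log2 -0.37, beside -0.33 over all genes. The pooled value hides opposite classes. The median was -0.74 without vascular-like cells and 0.09 with each class given equal weight, beside -0.50 and -0.18 over all genes. Per 10000 of all UMIs, 9 of the 10 genes were at least 2-fold higher in non-epithelial cells, at a median of 1.54, but so were 70.8% of all genes, at a median of 1.58.

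The other immediate early genes spread wider. Of 43, 15 were at least 2-fold higher in non-epithelial cells, beside 16.9% of all genes, and 8 were lower, beside 26.6%. Their median was log2 0.28, beside -0.33 over all genes. The most abundant were Btg2 (8.95 beside 20.9), an antiproliferative gene, Cebpd (5.03 beside 11.6), Zfp36 (6.41 beside 8.10), Ier3 (5.35 beside 8.57), Klf6 (3.95 beside 8.00) and Gadd45g (2.95 beside 7.21). Those with the largest excess in non-epithelial cells were the MAP kinase phosphatase Dusp2 (log2 5.05), Klf2 (3.69), the NF-kB inhibitor Tnfaip3 (3.32) and Ier5l (2.78). Each hid a class difference. Dusp2 was 5.26 in myeloid-like and 0.0886 in mesenchymal-like cells, and Tnfaip3 was 2.32 and 0.301. Klf2 was 18.9 in mesenchymal-like and 0.607 in lymphoid-like cells. Ier5l was 4.04 in lymphoid-like cells and lowest of all classes in myeloid-like cells, at 0.154. The genes with the largest deficit were the AP-1 gene Fosl1 (-2.26), Gadd45a (-1.88), Ccn1 (-1.55) and Trib1 (-1.42). Fosl1 had only 140 UMIs (0.0146 beside 0.0697), and its interval (-3.43 to -1.29) covered the values of the others. Its highest level was 0.566, in basal or myoepithelial-like cells.

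Other heat shock genes were nearly even. Of 22, 21 passed the count minimum. Dnaja1, a co-chaperone of HSP70, was at least 2-fold higher in non-epithelial cells (7.75 beside 3.48, log2 1.16), beside 16.9% of all genes. The small heat shock genes Hspb8 (-2.58) and Cryab (-2.25) were at least 2-fold lower, beside 26.6%. The median of the list was 0.04, beside -0.33 over all genes. The abundant chaperone genes Hspa8 (19.9 beside 19.2), Hsp90ab1 (17.2 beside 16.0), Hsp90aa1 (7.38 beside 7.71) and Hspe1 (4.02 beside 3.60) differed little. Hspb1 (3.38 beside 3.53) hid a class difference, with 16.0 in vascular-like and 0.179 in lymphoid-like cells. Further from even were Hmox1 (0.58), Cacybp (0.51), Hspa2 (0.47), Bag3 (-0.81) and Dnajb4 (-0.60).

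The kinases and factors known to act upstream of these genes were scarce. The most abundant, the ERK gene Mapk3, stood at 0.749 beside 0.689, and others were Mapk9 (0.205 beside 0.582), Creb1 (0.412 beside 0.384), Mapk14 (0.428 beside 0.34) and Mapk8 (0.173 beside 0.262). Of 13 genes, the ETS factor Elk3 was at least 2-fold higher in non-epithelial cells (log2 3.27), beside 16.9% of all genes. Srf (-1.80) and the JNK gene Mapk9 (-1.50) were lower, beside 26.6%. Mrtfa (0.80), Elk4 (0.36) and Hsf2 (-0.51) stayed within 2-fold. Hsf1, which encodes the main heat shock factor, stood at 0.106 to 0.225 in the 9 classes, levels too low to order.

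**Figure D5:**
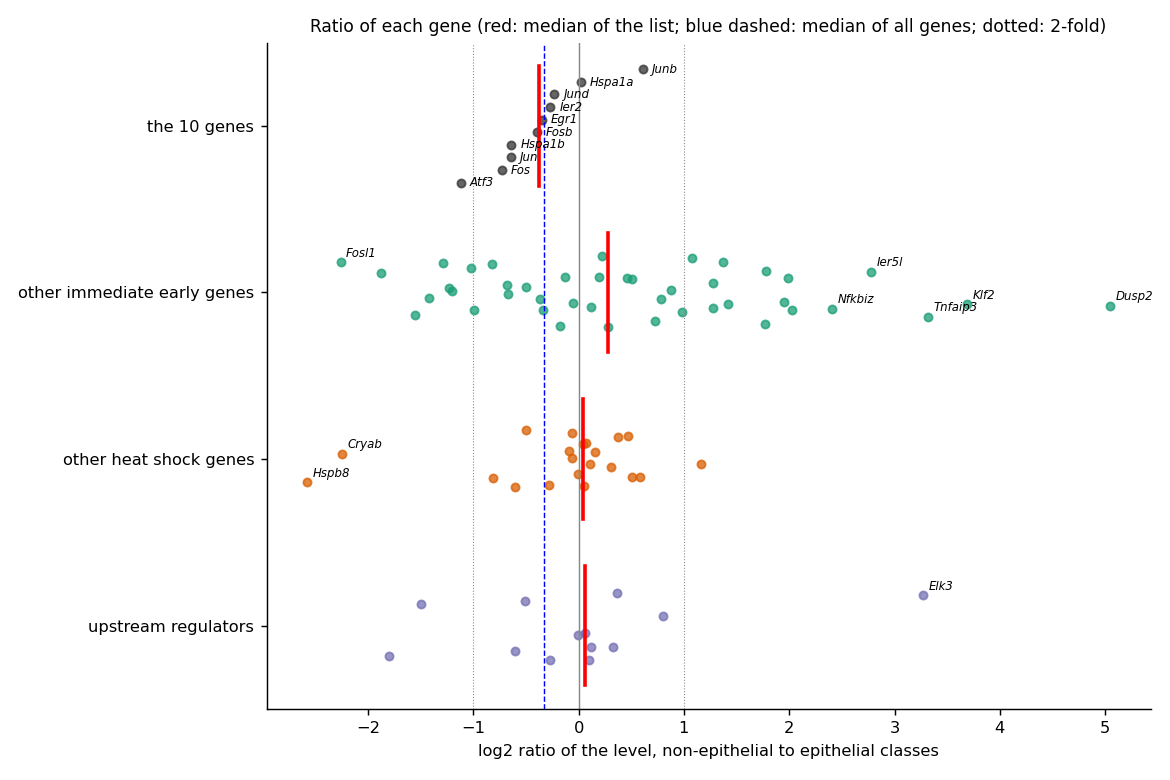
Log2 ratio of the level in non-epithelial to epithelial classes (horizontal axis) for each gene of the 4 lists (vertical axis), with the median of each list in red and that of all genes as a dashed blue line. The 10 genes lie between -1.12 (Atf3) and 0.61 (Junb), and the other immediate early genes between -2.26 (Fosl1) and 5.05 (Dusp2).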

How the data were processed

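Single-cell RNA-seq counts of SMG and SLG cells were used as deposited: the authors made the UMI counts from 10x Genomics 3' libraries with Cell Ranger 6.0.1 against mm10, per the submitters' processing notes, and did not normalize them. The labels name 4 samples with 2 mice in each label, but the matrix has 1 barcode suffix and was treated as 1 sample without tests.

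All 15707 barcodes were kept. Clustering used Seurat 5.3.0 in R 4.3.3 with log-normalization to 10000, 2000 variable genes less 44 genes of the 10 genes and the 3 other gene lists (1956 left), 20 principal components and a resolution of 0.5. A marker counted where at least 25% of a cluster's cells had a UMI and its level exceeded that of all other cells. A name needed at least 3 markers, a median of at least 500 genes and no list with more of the 10 leading genes. Where no marker led, at least 50% of the list was needed, and a cluster with 5 or more markers of both an epithelial and a non-epithelial list stayed unnamed. This naming rule was chosen with the clusters in view. Doublets were not removed: Scrublet in scanpy 1.11.5 called 0 cells, which is no working call, and its scores only ranked cells for an alternative.

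A level is the sum of UMIs per 10000 UMIs outside 57 secretory genes, with an exact Poisson 95% interval. Ratios have exact conditional binomial intervals and shares exact Clopper-Pearson intervals. UMI totals were 125100595 in all. Similar genes were ranked by Pearson r of log2(level + 0.1) over clusters, among genes with at least 500 UMIs. Comparisons of depth or mitochondrial share within single clusters were chosen after seeing the data. Steps were tested on simulated data. Sums and intervals were computed in Python 3.11.15 (pandas 2.3.3, scipy 1.17.1, numpy 2.4.6) and drawn with matplotlib 3.10.9.

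The 10 genes and all lists were chosen with earlier results of these data known. Beside the 10 genes, the text names the 6 most abundant genes of each list, the 4 with the largest ratio each way, the 3 genes most similar to each of the 10, leading genes and markers of classes, and genes of counts of 5 or fewer. A gene that this rule names is not reported here. Genes named outside this rule for their level in a class (Nr4a2, Klf4 and Hsf1 among them) were picked after their values were seen. Ccn1, Ccn2 and Mrtfa stand under these symbols, and older symbols of the same genes were not counted again.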

Additional observations from a re-analysis of the deposited data

How the results depend on the processing

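The matrix holds 1 sample, so no replicate could be left out. No paired analysis was possible because the columns carry no sample. Intervals cover counting error only, and 39.0% of cells were in unnamed clusters, mostly for low gene numbers. Per 10000 of all UMIs, 9 of the 10 genes were at least 2-fold higher in non-epithelial cells, beside 70.8% of all genes. So were 34 of the other immediate early genes and 19 of the other heat shock genes. The median of the 10 was 1.54, beside 1.58 over all genes. Of the 10 genes, 0 were lowest in lymphoid-like cells. In this setting 8 ratios turned positive (Atf3 0.79, Fos 1.18, Fosb 1.51, Jun 1.27, Jund 1.68, Egr1 1.56, Ier2 1.64, Hspa1b 1.27). Elsewhere the count of the 10 genes higher in non-epithelial cells stayed at 0. Their median was -0.24 at resolution 0.3, -0.41 at 0.8 and -0.53 with 10 principal components, beside -0.34, -0.37 and -0.40 over all genes. It was -0.87 in UMIs per cell and 0.09 with classes weighted equally, beside -0.83 and -0.18 over all genes. Without the 10% of cells with the highest doublet scores it was -0.42, beside -0.35. Of alternatives chosen after seeing the data, it was -0.30 with low-gene clusters named and -0.74 without vascular-like cells, beside -0.31 and -0.50 over all genes. The count of other heat shock genes was 0 in UMIs per cell, beside 13.4% of all genes. It was 2 with equal weights and with no count minimum, beside 17.3% and 15.0%. Lymphoid-like cells had the lowest share for 1 gene when thinned to 500 of all UMIs. Of 160 log2 ratios of single genes under 16 alternatives, 80 stayed within their interval and 14 changed sign: the 8 above, 4 with equal weights (Fosb, Jund, Egr1 and Hspa1b), and Hspa1a in UMIs per cell and without vascular-like cells. Junb was higher in non-epithelial cells under all 16. The lower levels of Hspa1a and Hspa1b in Dcpp-rich than in serous acinar-like cells stayed past 2-fold under every alternative run. Each alternative summed whole classes, and the low-gene clusters 0 and 1 taken alone did not differ 2-fold. The cause of these shifts was not tested.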

Other observations

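Cells that received no name also held the 10 genes. The 6120 unnamed cells had Fos at 30.5, Jun at 23.4, Atf3 at 22.7, Junb at 16.0, Egr1 at 10.9, Hspa1b at 7.01 and Hspa1a at 6.34 UMIs per 10000 non-secretory UMIs. Cluster 21, led by the smooth muscle genes Tagln, Acta2, Myl9 and Myh11, had 85 cells and a Fos level of 63.8 (59.9 to 67.9), the nearest to the 68.8 of mesenchymal-like cells. Its Atf3 level was 36.2 (33.2 to 39.3) beside 11.7 in mesenchymal-like cells. Cluster 17, led by Smgc, a secreted product of the SMG, had 234 cells with Fos at 40.4, Atf3 at 31.5 and Hspa1a at 5.66.

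Within myeloid-like cells, the level of each of the 10 genes was lower in the 25% of cells with the most non-secretory UMIs than in the 25% with the fewest. Hspa1a was 8.69 beside 18.5 (log2 -1.09, -1.24 to -0.94), Jun 9.11 beside 19.1 and Atf3 15.7 beside 30.9, at median depths of 3100 and 1390 UMIs. The deepest cells were 55.6% cluster 5 and 31.2% cluster 18, and the shallowest 94.4% and 5.24%. Within cluster 5 alone, a comparison chosen after seeing the data, all 10 genes were again lower in the deepest cells, from log2 -0.24 for Junb to -1.17 for Jund. How many of all genes were lower in the deepest cells, of the class or of cluster 5, was not counted. Within cluster 18 Fos was higher (log2 0.98, 0.49 to 1.5), and the intervals of the other 9 genes included 0. In mesenchymal-like cells Atf3 went the other way, at 17.9 in the deepest cells beside 5.31 in the shallowest (log2 1.75, 1.31 to 2.21). The difference between the 2 classes was not tested.

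Among the lymphoid-like clusters, cluster 19, led by Areg and the T cell genes Trbc2, Cd3d and Cd3g, had Fosb at 5.07 (4.06 to 6.26) beside 1.16 in cluster 4, and Atf3 at 3.32 (2.52 to 4.31) beside 0.941. Among the myeloid-like clusters, cluster 18, in which Cd209a and Ccr2 were counted and no C1q gene was, had Jun at 5.0 (4.37 to 5.71) beside 14.5 in the C1q-positive cluster 5, and Atf3 at 8.45 beside 24.7.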
